A study of Mus musculus with 13 samples.

Results

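The 7 genes described here carry the prolactin and growth hormone signal from the cell surface to the nucleus, and they were chosen by symbol from the 32285 genes counted in every library. Prlr and Ghr are the receptors of prolactin and growth hormone, Jak2 is the kinase bound to both, Stat5a and Stat5b are the transcription factors it activates, and Socs2 and Cish are feedback inhibitors that STAT5 induces. They were read in fibroblasts of the mouse mammary gland by droplet single-cell RNA sequencing, in 13 libraries of unique molecular identifier (UMI) counts. A barcode was taken as a fibroblast when it had 500 to 7500 genes, at most 10% mitochondrial UMIs, at least 50 UMIs of Dcn, Lum and Col1a2 per 10000 UMIs, and no UMI of Epcam, Pecam1, Rgs5, Sox10, Ptprc or Myog. This kept 100523 of 120355 barcodes.

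Wild-type C57BL/6 females gave 9 libraries, sorted as lineage-negative CD24-negative stroma: 1 library each of puberty (4 weeks), adult virgin (9 weeks), pregnancy (day 14.5), lactation (day 10) and involution (day 4), and 2 each of placebo and MPA+E (the progestin medroxyprogesterone acetate with estrogen) at 9 weeks. Each stage library came from 2 females, and per the study's methods each placebo or MPA+E library pooled 2 females, so p-values between the arms measure the spread between such pools. The raGFP-Wnt1 mouse, which is Pdgfra-GFP KI/+ and MMTV-Wnt1 T/+ on a mixed C57BL/6 and FVB background, gave 2 hyperplasia and 2 tumour libraries from sorted GFP-positive cells. The MMTV promoter drives Wnt1 in the mammary epithelium, and GFP reports Pdgfra. Hyperplasia and tumour 1 came from the same mouse at 45 weeks and hyperplasia and tumour 2 from another at 17 weeks.

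In the mammary gland, prolactin binding dimerises its receptor, JAK2 then phosphorylates STAT5, and STAT5 drives milk protein genes in the alveolar epithelium. Growth hormone uses the same kinase and factors, and its best known role in the gland lies in the stroma, where it induces Igf1 that acts on the ducts. SOCS2 and CIS, the product of Cish, bind the activated receptors and dampen the signal, so their transcripts are commonly read as a record of STAT5 activity.

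In GRCm38 (GENCODE M21, with the same gene identifiers as the counts) Prlr lies on the plus strand of chromosome 15 from 10177238 to 10349180 and Ghr on the minus strand of chromosome 15 from 3317760 to 3583492. Stat5a (chromosome 11, 100859351 to 100885169) and Stat5b (chromosome 11, 100780731 to 100850724) are neighbours 8626 bases apart. They are close paralogues, so the split of reads between them is uncertain, and Stat5a also overlaps Stat3 on the opposite strand. Socs2 lies on chromosome 10 (95385362 to 95417180), Cish on chromosome 9 (107296026 to 107302784) and Jak2 on chromosome 19 (29251828 to 29313080).

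The STAT5 consensus TTCNNNGAA, which reads the same on both strands, was searched in the 250 bases before each annotated start (RefSeq, GRCm38.p6). Windows were found for 6 of the 7 genes, and 1 of their 11 windows held a match, against 7.02% of all 32851 windows. That match lay 110 bases before the second Prlr start, and it is shown beside the Cish window, which had none, because the levels of both genes are described by fibroblast state in what follows. Capitals mark the match. The windows are chr15:10223656-10223905 and chr9:107296409-107296658, both on the plus strand. The Cish window precedes a RefSeq start but lies after the GENCODE gene start given above (107296026). The bases before that GENCODE start were not searched, so the missing match says nothing about them.
Prlr: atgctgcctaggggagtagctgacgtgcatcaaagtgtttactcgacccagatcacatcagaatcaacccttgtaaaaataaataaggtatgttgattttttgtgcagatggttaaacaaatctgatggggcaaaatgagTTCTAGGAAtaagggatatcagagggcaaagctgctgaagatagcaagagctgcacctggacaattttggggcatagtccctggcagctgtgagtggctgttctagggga
Cish: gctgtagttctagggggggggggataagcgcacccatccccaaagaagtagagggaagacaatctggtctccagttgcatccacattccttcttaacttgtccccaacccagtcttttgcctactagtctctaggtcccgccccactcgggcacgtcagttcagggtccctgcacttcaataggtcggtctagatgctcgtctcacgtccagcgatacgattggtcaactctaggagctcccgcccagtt
A match is a string of letters and no measured site. The counts hold no information on which Prlr start was used.

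Fibroblast barcodes numbered 4236 to 11951 per library with 47521842 to 102522735 UMIs, and the median UMIs per barcode ranged from 3990.0 in pregnancy to 20256 in tumour 2. Between any pair of libraries at most 51 barcode sequences were shared. Milk protein transcripts (Csn2, Csn3, Csn1s1, Csn1s2a and Wap), products of the alveolar epithelium, summed to 722 CPM (UMIs of the gene or list per 1000000 fibroblast UMIs) in lactation, 35.1 in pregnancy and 10.6 in involution, and to at most 0.123 elsewhere. Luminal epithelial markers summed to at most 17.4 CPM and basal markers to at most 37.7, both highest in pregnancy. Their part in the levels below was not tested.

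Each library was clustered without the 7 genes and their pathway relatives, and clusters were named for their likeness to a fibroblast state by fixed markers: progenitor (Pi16, Dpp4), preadipocyte (Fabp4, Pparg), ECM remodelling (Crabp1, Mmp3), lobular (Bmp5, Thbs4) and adipogenesis-regulatory (Gdf10, Clec11a). Named clusters held 43.0% to 81.9% of fibroblasts in the 9 C57BL/6 libraries. They held 24.5% to 53.3% in the raGFP-Wnt1 libraries, where states are described sparingly. The involution library had no preadipocyte cluster and the puberty library no ECM remodelling cluster. Cycling clusters (Mki67, Top2a) were named as well, with 10 barcodes in placebo 1 and 137 in pregnancy. States are ranked among the 5 states listed above only, without cycling and unnamed clusters. In the C57BL/6 libraries the unnamed barcodes lay above the highest ranked state in 3 libraries for Ghr, 3 for Stat5a and 1 for Socs2. They lay below the lowest in 1 each for Stat5a, Stat5b and Socs2. Levels by state are descriptions, since the states were built from the same cells.

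Over all fibroblasts Prlr, the prolactin receptor, stood at 22.2 CPM at puberty, 7.16 at adulthood, 8.86 mid-pregnancy, 3.70 while lactating and 6.27 at involution. Placebo gave 8.75 and 7.28 CPM, MPA+E 10.2 and 6.24. The hyperplasia libraries had 5.56 and 1.59 CPM, and the tumours 0.644 and 0.638. Puberty was thus the highest library and the tumours the lowest. A level over all fibroblasts mixes the share of cells that express a gene with the RNA per cell, and these sums cannot tell them apart.

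**Figure D1:**
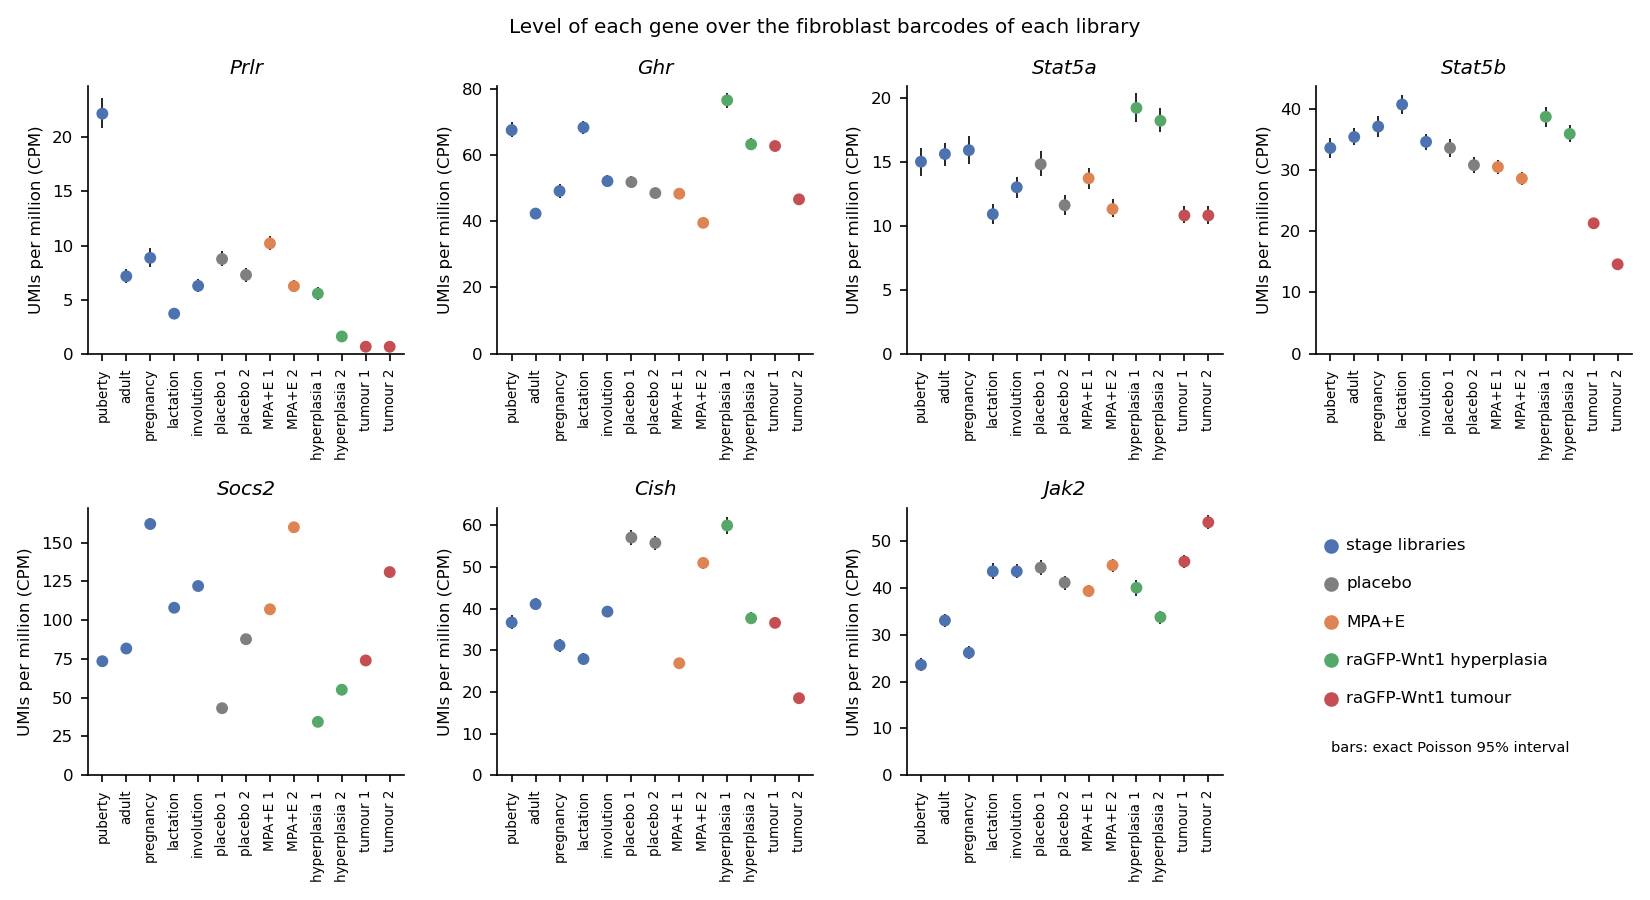
Level of each of the 7 genes (vertical axis, CPM over fibroblast barcodes, from 0) in each of the 13 libraries (horizontal axis), with exact Poisson 95% intervals that cover counting error only. Prlr is highest in puberty at 22.2 CPM and lowest in the tumours at 0.644 and 0.638, while Stat5a lies between 10.8 and 19.2 CPM.

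The adipogenesis-regulatory state, named after stromal cells known to restrain fat cell formation, held the highest Prlr level in 8 of 9 C57BL/6 libraries. Its level was 56.3 CPM at puberty, 15.8 at adulthood, 26.4 mid-pregnancy, 9.80 while lactating and 30.1 at involution. Placebo libraries gave 38.5 and 35.4 CPM, MPA+E libraries 19.8 and 20.4. The exception was MPA+E 1, where the lobular cluster reached 24.1 CPM against 19.8. Over the 9 libraries the level in the adipogenesis-regulatory state was 2.15 to 8.25 times that of all other fibroblasts of the same library.

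Progenitor and ECM remodelling fibroblasts were close to empty of Prlr. Progenitor levels ranged from 0.139 to 1.63 CPM with a median of 0.745, and ECM remodelling levels from 0 to 2.45 with a median of 0.648. Lobular fibroblasts had a median of 3.25 CPM. Preadipocytes had a median of 3.39 CPM, but in puberty they reached 40.9, and that library stood far from the other 7 with the state, at 2.56 to 11.4.

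In both hyperplasia libraries the adipogenesis-regulatory state was again the highest. Adipogenesis-regulatory fibroblasts had 37.4 and 8.65 CPM of Prlr, preadipocytes 12.4 and 2.45, and progenitors 0.221 and 0.320. In tumour 1 an adipogenesis-regulatory cluster of 100 barcodes had 14.4 CPM (10 UMIs, 95% interval 6.92 to 26.5) while the other fibroblasts had 0.550.

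Shares of barcodes were compared at equal depth as well. Over the 9 C57BL/6 libraries a Prlr UMI was found in 4.12% to 15.2% of adipogenesis-regulatory barcodes and in 0.137% to 1.21% of progenitor barcodes. Preadipocytes of puberty had a higher share than the adipogenesis-regulatory state (16.5% against 13.3%), as had lobular barcodes of MPA+E 1 (9.88% against 8.76%). Thinning each barcode to 2000 UMIs left out 953 adipogenesis-regulatory and 680 progenitor barcodes that were shallower. These exceptions remained, and over the 9 libraries the adipogenesis-regulatory and progenitor shares were then 1.88% to 8.01% and 0 to 0.441%. In the same libraries, barcodes with the pericyte marker Rgs5 had a Prlr UMI in 0.0736% of 1358 (median depth 2979 UMIs), and the 198 Sox10 barcodes of Schwann cells in none, which by the limit of 3 counts allows a share of barcodes with a UMI of up to 1.52% at their median depth of 3906 UMIs. Endothelial barcodes with a Pecam1 UMI had a Prlr UMI in 0.876% of 571 (median depth 2558 UMIs) and 5.05 CPM (2.18 to 9.96; 8 UMIs), above the progenitor median of 0.745 CPM. Epithelial barcodes with an Epcam UMI, the best known site of the receptor, had 195 CPM (182 to 207), and 7.06% of the 680 held a UMI.

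Prlr UMIs were also concentrated in few cells. Of these UMIs 50% lay in 14 of the 8454 fibroblast barcodes of lactation (0.166%) and in 22 of the 11951 of the adult, but in 132 of 7121 in puberty (1.85%). Barcodes with 4 or more Prlr UMIs numbered 20 to 62 in the 9 C57BL/6 libraries and held 32.8% to 69.9% of the UMIs. The threshold of 4 was chosen after the values were seen.

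A small set of fibroblasts carried both Pappa2, a protease that frees IGF from its binding proteins, and Lgr5, a receptor for R-spondins. In the stage libraries 12 to 25 barcodes, 0.122% to 0.260% of the fibroblasts, had UMIs of both genes, and their Prlr level was 612 to 872 CPM against 1.80 to 20.2 in all other fibroblasts. They held 9.06% of all Prlr UMIs at puberty, 34.6% at adulthood, 24.7% mid-pregnancy, 51.5% while lactating and 18% at involution. Placebo libraries had 445 and 416 CPM in 13 such barcodes each, MPA+E libraries 429 and 699.7 in 4 and 5. Hyperplasia libraries had 819 and 170.0 CPM in 7 and 2 such barcodes, tumours 54.4 and 0 in 5 and 3. The values of hyperplasia 2 (interval 35.1 to 497) and tumour 1 (11.2 to 159) rest on 3 Prlr UMIs each, all in 1 barcode. In MPA+E 1 the Prlr UMIs lay in 2 of the 4 barcodes. The pair of genes was taken up with earlier results of these data known, so the excess is a description.

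**Figure D2:**
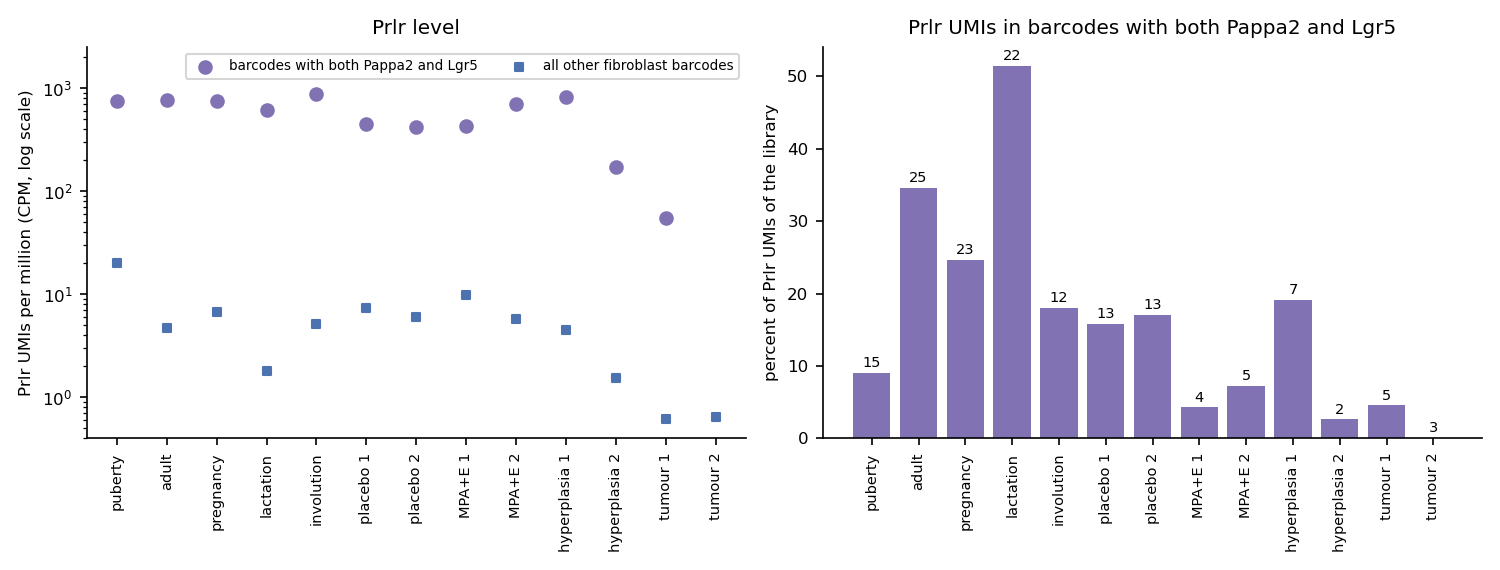
Left, Prlr level (CPM, log scale) in fibroblast barcodes with UMIs of both Pappa2 and Lgr5 and in all other fibroblast barcodes of each library. Right, the percent of the library's Prlr UMIs held by the first group, with the number of such barcodes above each bar. Tumour 2 has no left point for the 3 such barcodes because they held 0 Prlr UMIs, and in lactation 22 barcodes held 51.5% of the UMIs.

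Ghr, the growth hormone receptor, was detected in 16.2% to 45.7% of fibroblast barcodes of the C57BL/6 libraries. Its level was 67.5 CPM at puberty, 42.3 at adulthood, 49.1 mid-pregnancy, 68.3 while lactating and 52.1 at involution. Placebo libraries gave 51.8 and 48.5 CPM, MPA+E libraries 48.3 and 39.5. Levels were 76.5 and 63.2 CPM in hyperplasia and 62.7 and 46.6 in tumours. Lactation and puberty were the highest stage libraries, with overlapping counting intervals (66.2 to 70.3 and 65.3 to 69.9).

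By state, the order of Ghr levels had the same ends as that of Prlr. Among named clusters the adipogenesis-regulatory state was highest in 7 of 9 C57BL/6 libraries, at 55 to 122 CPM with a median of 70.6. In puberty, however, its 70.6 CPM (61.0 to 81.3) was 1.05 times that of all other fibroblasts, and the unnamed 57% of barcodes had 83.7 (80.4 to 87.0). Unnamed barcodes also lay above every named state at adulthood and mid-pregnancy, at 60 and 60.8 CPM. Lobular fibroblasts were highest in the other 2 (pregnancy and MPA+E 1), with a median of 58.8. Progenitor, preadipocyte and ECM remodelling medians were 31.9, 34.7 and 28.7 CPM. Without thinning the lobular state had the highest share of barcodes with a Ghr UMI in 5 libraries, and after thinning in 1. Thinned shares had medians of 12.9% in adipogenesis-regulatory and 10.4% in lobular fibroblasts. Other cell classes varied widely in Ghr: pericyte barcodes had 7.84 CPM and a UMI in 3.46% at a median depth of 2979 UMIs, while endothelial barcodes had 41.7 CPM (32.2 to 53.0) and a UMI in 8.41% at a median depth of 2558. The endothelial level lay within the range of the fibroblast libraries.

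**Figure D3:**
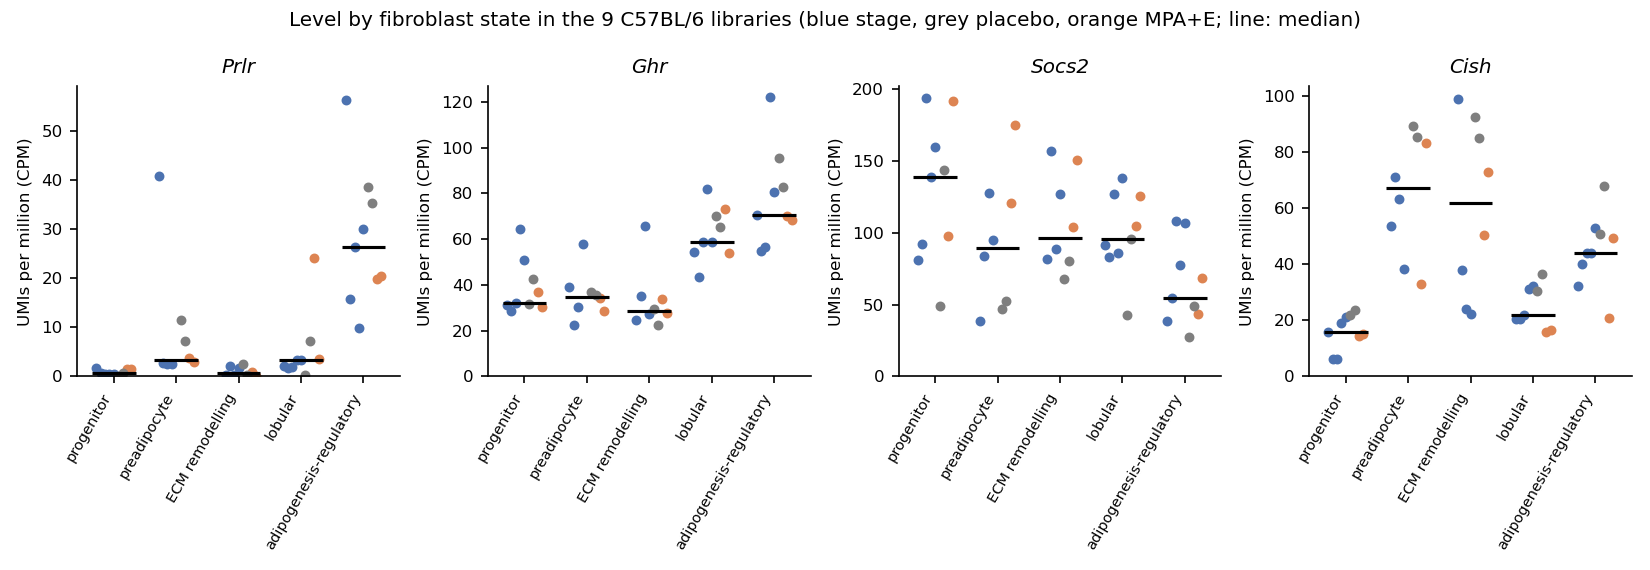
Level (vertical axis, CPM) of Prlr, Ghr, Socs2 and Cish in 5 fibroblast states (horizontal axis), 1 point for each C57BL/6 library that had the state and a line at the median. The Prlr median is 26.4 CPM in adipogenesis-regulatory and 0.745 in progenitor fibroblasts. Every progenitor value of Cish is the lowest of its library among these 5 states.

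Jak2, the kinase that both receptors hold, had 23.6 CPM at puberty, 33.1 at adulthood, 26.2 mid-pregnancy, 43.6 while lactating and 43.6 at involution. Placebo libraries gave 44.4 and 41.2 CPM, MPA+E libraries 39.4 and 44.9. Levels were 40.1 and 33.8 CPM in hyperplasia and 45.7 and 54.1 in tumours. State medians ran from 28.5 CPM in ECM remodelling to 48.8 in adipogenesis-regulatory fibroblasts. The latter was highest in 5 libraries and the preadipocyte state in 4.

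Stat5a had 15.0 CPM at puberty, 15.6 at adulthood, 15.9 mid-pregnancy, 10.9 while lactating and 13 at involution. Placebo libraries gave 14.8 and 11.6 CPM, MPA+E libraries 13.7 and 11.3. Levels were 19.2 and 18.2 CPM in hyperplasia and 10.8 in both tumours. No state stood out, with state medians from 12.4 to 14 CPM and 5 different states each the highest in at least 1 library.

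Stat5b had 33.6 CPM at puberty, 35.4 at adulthood, 37.1 mid-pregnancy, 40.7 while lactating and 34.6 at involution. Placebo libraries gave 33.6 and 30.8 CPM, MPA+E libraries 30.5 and 28.6. Levels were 38.7 and 35.9 CPM in hyperplasia and 21.3 and 14.6 in tumours. By state, lobular (median 40.8 CPM) and progenitor fibroblasts (41.2) were highest in 5 and 2 libraries, and adipogenesis-regulatory fibroblasts (26.5) were lowest in 5 and highest in none.

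Socs2, the feedback inhibitor best known for restraining growth hormone signalling, had 73.5 CPM at puberty, 81.7 at adulthood, 162 mid-pregnancy, 108 while lactating and 122 at involution. Placebo libraries gave 43.2 and 87.7 CPM, MPA+E libraries 107 and 159.9. Levels were 34.4 and 55.1 CPM in hyperplasia and 74.0 and 131 in tumours. Pregnancy was the highest stage.

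By state, adipogenesis-regulatory fibroblasts, where both receptors were mostly highest, had the lowest Socs2 level of the 5 ranked states. This held in 9 of 9 C57BL/6 libraries, from 27.7 to 108 CPM. Progenitors had the highest in 6, at 49.2 to 194 CPM with a median of 139. In puberty the lowest place was shared within counting error, at 38.4 CPM (31.4 to 46.5) against 38.5 in preadipocytes (32.8 to 44.9). Intervals overlapped elsewhere too, as in placebo 2 (43.8 to 54.4 against 48.4 to 56.6 in preadipocytes) and lactation (69.7 to 86.8 against 76.6 to 95.5 in lobular fibroblasts). Outside the ranking, the cycling cluster of placebo 1 had 18.1 CPM (6 UMIs) against 27.7. At a coarser clustering resolution of 0.5 the adipogenesis-regulatory state was lowest in 8 libraries. The level itself differed between stages, from 38.4 CPM in puberty to 108 in pregnancy within the adipogenesis-regulatory state and from 80.8 to 194 within progenitors.

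Cish had 36.7 CPM at puberty, 41.1 at adulthood, 31.2 mid-pregnancy, 27.9 while lactating and 39.3 at involution. Placebo libraries gave 57.1 and 55.8 CPM, MPA+E libraries 26.9 and 51.0. Levels were 60 and 37.7 CPM in hyperplasia and 36.6 and 18.5 in tumours. The pregnancy library was highest of the stages for Socs2 and among the lower ones for Cish.

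Their states differed as well. Among the 5 ranked states Cish was lowest in progenitors in 9 of 9 C57BL/6 libraries, at 6.22 to 23.9 CPM, where Socs2 was mostly highest. Counting intervals overlapped with the next state in several libraries. The closest was involution, at 21.4 CPM (19.2 to 23.8) against 22.2 in ECM remodelling fibroblasts (17.4 to 27.8). Outside the ranking, the cycling cluster of placebo 1 had 15.1 CPM (5 UMIs) against 21.9 in progenitors. Preadipocytes (median 67.2 CPM) were highest in 4 libraries and ECM remodelling fibroblasts (61.9) in 3. In the adult the ECM remodelling state had 99.1 CPM (92.5 to 106) against 6.22 in progenitors. In lactation and involution ECM remodelling fibroblasts had 24.1 and 22.2 CPM, below 53.2 in the adipogenesis-regulatory state of involution. After thinning, 1.29% to 5.19% of progenitor, 1.34% to 6.22% of lobular and 7.11% to 19.0% of preadipocyte barcodes held a Cish UMI. In MPA+E 1, for example, the thinned lobular share of 1.34% lay below the progenitor share of 2.11%. Pericyte barcodes held a UMI in 11.7% without thinning.

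Within the adipogenesis-regulatory state, barcodes with a Prlr UMI were set beside those without, as a description. Igf1, the main growth hormone target of the gland, was higher with Prlr in 9 of 9 C57BL/6 libraries, by 1.37 to 2.15 times. Ghr was higher in 8 of 9 (0.777 to 1.73 times), Socs2 in 7 of 9 (0.760 to 1.86) and Cish in 6 of 9 (0.706 to 1.78). The counting interval of the ratio lay above 1 in 9 libraries for Igf1, but in 2 for Ghr, 4 for Socs2 and 3 for Cish. Gdf10, a marker of the state, was higher in 1 of 9. Barcodes with Prlr had more UMIs in 9 of 9 libraries, and the part of depth in these ratios was not tested beyond scaling to CPM.

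Over the 13 libraries, the genes with the pattern most like each of 4 members were ranked by Pearson's r of log2(CPM + 1) among 9649 genes with a mean of at least 5 CPM. For Prlr these were Pramef8 (r = 0.950), Rspo1 (0.920), Igf2bp2 (0.920), Gm17435 (0.914) and Itm2a (0.894). For Ghr they included Kazald1 (0.868), Ctsf (0.835), Pip5k1c (0.821) and Pdk2 (0.783). Socs2 was most like Tbrg1 (0.854), Adarb1 (0.853), Rnf25 (0.809), Rhog (0.780) and Cyth3 (0.779), and Cish most like Fbxo30 (0.924), Casp4 (0.906), Mt2 (0.901), Tnfaip6 (0.894) and Ccnl1 (0.885). The points share differences in depth and the contrast of tumour with normal tissue, so these r values describe 13 points only.

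The first question of the design was how the stages of gland development differ, with 1 library each and so without a test. Between puberty and the adult, Prlr in the adult was 0.323 times its pubertal level (counting interval 0.290 to 0.358), the 1 member of 7 past a 2-fold difference, where 3.65% of 12548 genes passed. Ghr was at 0.626 times (0.595 to 0.657). Without the barcodes that held both Pappa2 and Lgr5 the Prlr ratio was 0.232. Adipogenesis-regulatory markers summed to 246 CPM at puberty and 129 at adulthood, cycling markers to 44.5 and 10.6, and Schwann markers to 50.5 and 15.9, and their part in these ratios was not tested.

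From the adult to pregnancy, 0 of 7 members and 2.53% of 12564 genes passed 2-fold. Socs2 was just short of it, 1.99 times higher (1.92 to 2.05), and 2.59% of genes differed at least as far. Cish was lower, at 0.759 times (0.713 to 0.808). Prlr was 1.24 times higher (1.09 to 1.41), and the direction turned, to 0.797 times, when all barcodes within the gene and mitochondrial limits were counted, epithelial ones included.

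In lactation Prlr was at 0.417 times its level in pregnancy (0.354 to 0.491), again the 1 member past 2-fold, where 11% of 12545 genes passed. Jak2 was 1.66 times (1.55 to 1.78) and Ghr 1.39 times higher, and Stat5a 0.687 times. Milk protein transcripts stood at 35.1 CPM in pregnancy and 722 in lactation, and their part in these ratios was not tested.

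From lactation to involution 0 of 7 members and 4.45% of 12800 genes passed 2-fold. Prlr was 1.70 times higher (1.45 to 1.99) and Cish 1.40 times (1.32 to 1.49). ECM remodelling markers summed to 2783 CPM in lactation and 7558 in involution, milk protein transcripts to 722 and 10.6. The sum of Pgr, Cxcl13 and Il1r2 was 228 and 92.9 CPM. The part of these sums in the ratios was not tested. Without the barcodes with both Pappa2 and Lgr5, Prlr was 2.86 times higher in involution and 0.269 times in lactation against pregnancy, with 12 to 23 barcodes left out per library. All intervals cover counting error only, since a stage was not replicated.

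The second comparison, MPA+E against placebo, asked how progestin with estrogen changes the fibroblasts, with 2 libraries an arm. None of the 7 members was called over all fibroblasts by edgeR's quasi-likelihood test at a Benjamini-Hochberg adjusted p under 0.05, where 4.33% of 15642 genes were called. Their median log2 fold change was -0.06, beside 0.005 over all genes. An unadjusted p under 0.05 was reached by 2893 of the genes and by 0 members.

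Socs2 had the largest difference. Both MPA+E libraries (107 and 159.9 CPM) lay above both placebo libraries (43.2 and 87.7), with a log2 fold change of 1.03 ± 0.43 (SE) and adjusted p = 0.298. That fit has no term for the replicate number, although deviations of same-numbered libraries correlated (r = 0.622 over 9649 genes). With the number as a block Socs2 passed the threshold, as given in the closing section. Cish was lower in both MPA+E libraries than in either placebo library (26.9 and 51.0 against 57.1 and 55.8 CPM), with a log2 fold change of -0.51 ± 0.33 and adjusted p = 0.511. Leaving out MPA+E 2 gave -1.11 for Cish with adjusted p = 0.00915. The other 5 members lay between -0.18 and 0.04.

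Within states, 2 of 35 member tests passed. In the adipogenesis-regulatory state Prlr fell from 38.5 and 35.4 CPM in the placebo arm to 19.8 and 20.4 with MPA+E, a log2 fold change of -0.81 ± 0.14 (edgeR, adjusted p = 0.0306), where 3.19% of 11657 genes were called. The arms did not overlap and each pair was tight. The call was lost without placebo 1 (adjusted p = 0.264) or placebo 2 (0.277), at the same size.

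In preadipocytes Socs2 rose from 46.8 and 52.4 CPM to 121 and 175, a log2 fold change of 1.56 ± 0.25 (edgeR, adjusted p = 0.0348), where 3.43% of 12346 genes were called. Without either placebo library its adjusted p was 0.186 or 0.163. Prlr in the same state went from 11.4 and 7.17 CPM to 3.76 and 3.02, and missed the threshold (-1.46 ± 0.26, edgeR adjusted p = 0.0502).

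Socs2 had a positive fold change in 5 of 5 states (0.59 to 1.56) and Cish a negative one in 5 of 5 (-1.05 to -0.57). The Socs2 direction in progenitors (0.59) turned without placebo 1 (-0.01) and without MPA+E 2 (-0.05). Cish came nearest to the threshold in lobular fibroblasts, with 30.5 and 36.6 CPM for placebo against 15.9 and 16.6 for MPA+E (-1.05 ± 0.20, edgeR adjusted p = 0.0503). The states share their libraries, so these are not independent repeats. No member was called in lobular fibroblasts (2.07% of 10646 genes), progenitors (3.31% of 12369) or ECM remodelling fibroblasts (0% of 12462, with 1167 genes at an unadjusted p under 0.05).

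Prlr over all fibroblasts had overlapping arms (8.75 and 7.28 against 10.2 and 6.24 CPM), and its fold change was negative in 3 states and positive in 2 (1.84 in lobular fibroblasts and 1.49 in progenitors, neither called). The progenitor value rests on 1 and 12 Prlr UMIs with placebo and 21 and 36 with MPA+E. Lobular clusters of the placebo libraries held 1 and 39. MPA+E 1 had 276 of its 890 Prlr UMIs in its lobular cluster, at 24.1 CPM, against 7 UMIs (3.63 CPM) in that of MPA+E 2, so this level belongs to 1 library. Fibroblasts with UMIs of both Pgr, the progesterone receptor, and Cxcl13, a chemokine, held 14% and 22.7% of Prlr UMIs under MPA+E and 0.658% and 0.381% under placebo. They made up 9.24% and 11.1% of fibroblasts under MPA+E and 2.44% and 3.0% under placebo. Their Prlr level was 11.7 and 9.63 CPM under MPA+E (125 and 129 UMIs) and 1.83 and 0.702 under placebo (4 and 2 UMIs). All other fibroblasts had 10.0 and 5.66 CPM under MPA+E and 8.98 and 7.55 under placebo. The ratio was 1.17 (0.961 to 1.42) in MPA+E 1 and 1.70 (1.39 to 2.07) in MPA+E 2. Barcodes with both genes were deeper (median 21572 against 16212 UMIs and 13264 against 9844), and the part of depth was not tested. In the stage libraries such fibroblasts had 6.58 CPM at puberty (20 UMIs), 4.88 at adulthood (21 UMIs), 6.16 mid-pregnancy (8 UMIs), 0 while lactating (51 barcodes) and 3.71 at involution (3 UMIs). Counting intervals were wide at these UMI numbers, and of the 5 stages only the adult interval (3.02 to 7.46) lay below both MPA+E intervals (9.76 to 14 and 8.04 to 11.4). The lactation value allows up to 10.6 CPM, so it could not be placed against either arm.

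Some marker sums over all fibroblast barcodes moved with the hormone arms. Preadipocyte markers (5 genes, all detected) summed to 1319.9 and 1212 CPM with placebo against 850.3 and 800.4 with MPA+E. Adipogenesis-regulatory markers (5 genes, all detected) summed to 292 and 264 against 228 and 161, and Pappa2 with Lgr5 to 8.15 and 4.09 against 2.32 and 1.62. These 3 sums were lower in both MPA+E libraries. Going the other way by a small margin, ECM remodelling markers summed to 1537 and 1490.2 CPM with placebo against 1589 and 1601 with MPA+E. Of the other cell types, basal epithelial markers were at 3.8 and 3.73 CPM with placebo against 1.03 and 1.39, muscle markers (Myog at 0 by the choice of barcodes) at 4.12 and 4.05 against 3.25 and 3.58, and endothelial markers (Pecam1 at 0 likewise), higher with MPA+E, at 0.331 and 0.430 against 0.644 and 0.461. The part of these sums in the differences of the 7 genes was not tested.

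**Figure D4:**
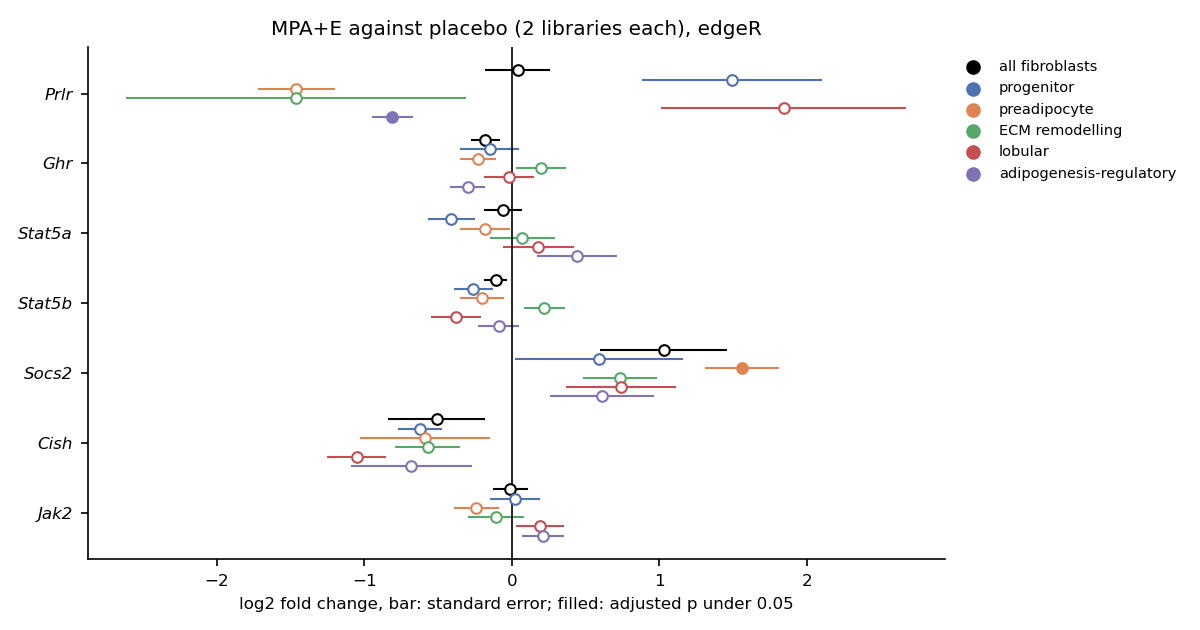
Log2 fold change of MPA+E against placebo (horizontal axis) for the 7 genes over all fibroblasts and in 5 states, with standard errors and filled points where the edgeR adjusted p was under 0.05. Socs2 lies right of 0 in all 6 rows and Cish left of 0, while only Prlr in the adipogenesis-regulatory state (-0.81) and Socs2 in preadipocytes (1.56) are filled.

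Whether progenitors responded differently from the mean of the other 4 states was tested as a difference of differences in edgeR. None of the 7 members was called (0.592% of 13673 genes were, and 1235 had an unadjusted p under 0.05). The smallest unadjusted p among the members was 0.0383 for Stat5a (-0.55 ± 0.24, adjusted p = 0.511). For Prlr the difference was 1.90 ± 1.15 (edgeR adjusted p = 0.743). At the clustering resolution of 0.5 placebo 2 had no progenitor cluster, against 1174 barcodes here, so this comparison could not be repeated there.

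The third comparison set hyperplastic raGFP-Wnt1 glands against normal glands (puberty and adult), in 1 limma-voom fit of 6 libraries. The normal group pooled puberty and adult, 1 library each, so part of the spread behind the p-values is a difference between stages. The tumour comparison below shares this fit and its spread. None of the 7 members was called, where 14% of 16302 genes were, and their median log2 fold change was 0.25, beside -0.005 over all genes. Prlr had the largest difference, -2.12 ± 0.75 (limma adjusted p = 0.0993). Its normal libraries were far apart (22.2 and 7.16 CPM), but both lay above both hyperplasia libraries (5.56 and 1.59). Socs2 was lower in both hyperplasia libraries (34.4 and 55.1 CPM) than in the normal ones (73.5 and 81.7), at -0.87 ± 0.30 (limma adjusted p = 0.0985). It passed with either tumour library left out of the shared fit (adjusted p = 0.0239 in each case). The placebo 1 library, from a C57BL/6 gland as well but outside this comparison, had 43.2 CPM, between the hyperplasia values. Genotype, background strain, age and sort differ together between these groups and cannot be told apart.

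Marker sums over all fibroblast barcodes also separated hyperplasia from normal glands, in both directions. Progenitor markers were at 6235 and 7002 CPM in normal glands against 2815 and 3906 in hyperplasia, ECM remodelling markers at 979 and 959 against 3119 and 2778, and preadipocyte markers at 1146 and 1131 against 1643 and 1774. Adipogenesis-regulatory markers were at 246 and 129 CPM against 309.8 and 252, lobular markers at 1219 and 1398 against 932 and 749, and cycling markers at 44.5 and 10.6 against 3.91 and 1.19. Muscle and basal epithelial markers were lower in hyperplasia. Muscle markers (with Myog at 0 by the choice of barcodes) were at 7.22 and 4.24 CPM against 0.726 and 1.28. Basal epithelial markers were at 3.61 and 3.98 against 1.98 and 2.75, and adipocyte markers, lower too, at 1.52 and 0.271 against 0.159 and 0.0828. Pericyte markers (4.60 and 2.42 against 5.89 and 5.83) and luminal epithelial markers (0.123 and 0.203 against 0.265 and 0.359) were higher in hyperplasia. The part of these sums in the differences was not tested.

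The fourth comparison, tumour against hyperplasia, called 3 of 7 members, where 29.3% of 16302 genes were called. It used the same limma-voom fit, which has no term for the mouse, although same-numbered libraries share a mouse. Results with the mouse as a block are given below only for Prlr, Cish, Ghr and Jak2. Stat5a fell from 19.2 and 18.2 CPM to 10.8 in both tumours, a log2 fold change of -0.79 ± 0.14 (limma adjusted p = 0.0135). Stat5b fell from 38.7 and 35.9 CPM to 21.3 and 14.6, at -1.08 ± 0.21 (limma adjusted p = 0.0178). Neither pair of groups overlapped.

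Socs2 moved the other way. It rose from 34.4 CPM to 74.0 in mouse 1 and from 55.1 to 131 in mouse 2, a log2 fold change of 1.19 ± 0.31 (limma adjusted p = 0.0341). The members' median log2 fold change was -0.79, beside -0.013 over all genes. The calls for Stat5a and Stat5b were lost without either hyperplasia library (limma adjusted p = 0.0713 to 0.118). That for Socs2 was lost in 5 of the 6 fits that left out 1 library (limma adjusted p = 0.0673 to 0.187), those without puberty, adult, hyperplasia 1, hyperplasia 2 or tumour 2.

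Prlr and Cish missed the threshold in that fit and passed with the mouse as a block, a fit that called 30.6% of 16001 genes. Prlr went from 5.56 to 0.644 CPM in mouse 1 and from 1.59 to 0.638 in mouse 2, with -2.13 ± 1.05 (limma adjusted p = 0.159) and, with the mouse as a replicate block, -2.38 (adjusted p = 0.0322). Cish went from 60 to 36.6 CPM and from 37.7 to 18.5, with -0.87 ± 0.37 (limma adjusted p = 0.116) and -0.87 with the block (adjusted p = 0.0225). Ghr was lower and Jak2 higher in the tumour of both mice (-0.36 ± 0.29 and 0.44 ± 0.19), and neither passed in either fit. The Prlr counts in tumours were small, with 66 and 56 UMIs.

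Several marker sums over all fibroblast barcodes moved with these differences. Myofibroblastic markers (6 genes, all detected) summed to 1852 and 823 CPM in hyperplasia and to 4098 and 8368 in tumours. Cycling markers (5 genes, all detected) summed to 3.91 and 1.19 CPM in hyperplasia and to 75.5 and 160.2 in tumours. Pericyte markers (3 genes, with Rgs5 at 0 by the choice of barcodes) summed to 5.89 and 5.83 CPM in hyperplasia and to 9.48 and 18 in tumours. State markers differed in both directions. Preadipocyte genes summed to 1643 and 1774 CPM in hyperplasia against 603 and 361 in tumours, and ECM remodelling genes to 3119 and 2778 against 7169.8 and 9003. The sum of Pgr, Cxcl13 and Il1r2 was 158 and 207 CPM against 42.4 and 18.3, and that of Pappa2 and Lgr5 was 6.83 and 4.51 against 14 and 14.4. Lobular genes summed to 932 and 749 CPM against 1443 and 969. Of the other cell types, whose defining markers Sox10, Pecam1 and Epcam are at 0 by the choice of barcodes, Schwann markers went from 15.0 and 21.5 CPM in hyperplasia to 9.21 and 1.81 in tumours, endothelial markers from 1.20 and 0.690 to 0.390 and 0.524, and luminal epithelial markers from 0.265 and 0.359 to 1.56 and 0.501. Basal epithelial markers (1.98 and 2.75 CPM in hyperplasia against 1.87 and 0.900) and the sum of Dcn, Lum, Col1a2 and Pdgfra (21396 and 18424 against 18393 and 17945) were lower in tumours. Milk protein transcripts were higher (0.0708 and 0.0828 against 0.0878 and 0.103). None of the sums named so far overlapped between hyperplasia and tumour, but sums that did overlap were left out. Among those were progenitor markers (2815 and 3906 against 3363 and 835 CPM) and adipogenesis-regulatory markers (309.8 and 252 against 222 and 285). With 2 libraries a group, a lack of overlap alone is weak. The part of all these sums in the changes of the 7 genes was not tested.

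**Figure D5:**
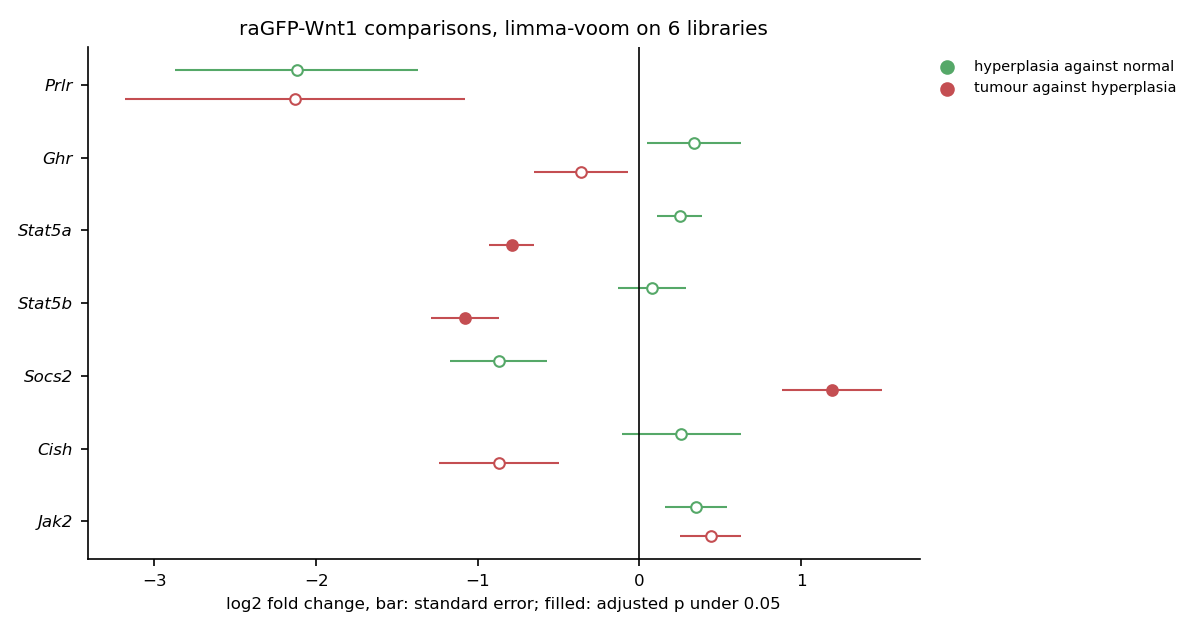
Log2 fold change (horizontal axis) of the 7 genes in hyperplasia against normal glands and in tumour against hyperplasia, with standard errors from 1 limma-voom fit of 6 libraries and filled points where the adjusted p was under 0.05. Only Stat5a (-0.79), Stat5b (-1.08) and Socs2 (1.19) in tumour against hyperplasia are filled.

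Transcripts of the hormone genes Prl and Gh, and of the prolactin-family genes Prl2c2 and Prl8a2, came to at most 1 UMI each at this depth. Other genes of that family were not read. Prl gave 1 UMI over all 13 libraries, and Gh, Prl2c2 and Prl8a2 gave 0, which by the limit of 3 counts allows each a level of up to 0.00317 CPM over 946368503 fibroblast UMIs (counting error only).

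The wider pathway was followed by fixed lists chosen with earlier results of these data known. Among the other STAT genes, Stat2, a factor of the interferon response, rose under MPA+E (log2 fold change 1.27 ± 0.13, edgeR adjusted p = 0.0139). Called shares are to be read against 4.33% of all genes tested. Of 7 growth hormone and STAT5 target genes, 1 fell and none rose, namely Igf1 (-1.41 ± 0.10, adjusted p = 0.00745). Igf1 stood at 259 and 234 CPM in the placebo arm, against 90.6 and 93.7 with MPA+E. Of 14 other class I cytokine receptors tested 1 fell, Il13ra1 (-1.51 ± 0.18, adjusted p = 0.0194). Of 6 other SOCS genes and of 10 other JAK genes and their regulators none passed.

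In hyperplasia, where 14% of all genes tested were called, 3 of the 14 other class I receptors rose and 1 fell. Epor (2.85 ± 0.40, limma adjusted p = 0.0151), Lifr (1.19 ± 0.25) and Cntfr (1.10 ± 0.28) were higher and Il11ra1 was lower (-1.14 ± 0.14). No gene of the target, SOCS or JAK lists passed.

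In tumours, where 29.3% of all genes tested were called, the other class I receptors that changed included Il2rg (3.45 ± 0.94, limma adjusted p = 0.0376), which rose, and Il6ra (-2.37 ± 0.52) and Epor (-2.06 ± 0.33), which fell. Of 11 other JAK genes and regulators 3 rose, Jak3 most (1.87 ± 0.38), a share near that of all genes. Of 7 target genes 3 rose and none fell: Ccnd1 (1.63 ± 0.23), Igf1 (1.22 ± 0.32) and Gadd45g (0.99 ± 0.23), the last 2 named after their values were seen. Igf1 went from 193 to 349.5 CPM in mouse 1 and from 131 to 396 in mouse 2. Of the other SOCS genes 1 rose and 1 fell, and of the other STATs 1 fell.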

How the data were processed

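The deposited values are whole UMI counts for each gene in each barcode, not normalized, which the authors made from 10x 3′ v3 libraries with Cell Ranger 6.1.2 on mm10, per the submitters' processing notes. The annotation and the use of strand are not given in the sources used here. The 7 members and all gene lists were chosen with earlier results of these data known.

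Barcodes were filtered by the rule stated in the report. Doublets marked by Scrublet were removed only as an alternative. Each library was clustered with scanpy 1.11.5 (Python 3.11.15) without the listed pathway genes, and the rule that names clusters was set after their tables were seen. Counts were summed per library, or per library and state, and scaled to CPM. Intervals are exact Poisson or binomial 95% intervals from scipy 1.17.1. The limits printed for a count of 0 use 3 counts, except the exact Poisson limit of 10.6 CPM for lactation barcodes with Pgr and Cxcl13. Detection was also computed on barcodes thinned to 2000 UMIs.

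The hormone arms were compared with edgeR 4.0.16 and the raGFP-Wnt1 groups with limma 3.58.1 (R 4.3.3), with TMM scaling, a filter on low counts and Benjamini-Hochberg adjustment over all genes tested, and DESeq2 1.42.0 was an alternative. Scripts were tested on simulated data. Same-numbered hyperplasia and tumour libraries come from 1 mouse per the labels (correlation of their deviations 0.263 over 9649 genes). Stage ratios used genes with at least 100 UMIs over both libraries. All 7 members are named, and of each list at most the 6 called genes with the largest change, unless stated. Some genes that this rule or the ranking by pattern names, and list counts that rest on them, are not reported here. Figures were drawn with matplotlib 3.10.9.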

Additional observations from a re-analysis of the deposited data

How the results depend on the processing

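The results rest on few libraries, and where leaving out 1 of them leaves an arm with 1 sample, that sample is assumed to vary like the other groups. Of the member values recomputed under another setting, 628 were counted as unchanged. For a fit this means the same direction and side of the threshold, for a stage ratio a value within its counting interval. Of the others, 29 passed the threshold anew, 13 lost it, 20 stage ratios moved beyond their counting interval and 24 changed sign. Stage ratios short of 2-fold were not counted as changing sign. Prlr in pregnancy against adult, which turned, is thus among those that moved. None of the members that changed sign had been called. With 1 library left out, genes called under MPA+E ranged from 22 to 900 over all fibroblasts, 0 to 922 in the adipogenesis-regulatory state, 0 to 28 in ECM remodelling, 132 to 887 in lobular, 43 to 617 in preadipocyte and 97 to 867 in progenitor fibroblasts, and 0 to 47 for the progenitor difference. They ranged from 1 to 4810 for hyperplasia against normal and from 242 to 7120 for tumour against hyperplasia. Over the same fits the log2 fold change under MPA+E ranged from -0.30 to 0.32 for Prlr, -0.18 to 0.05 for Stat5a (0.02 without MPA+E 2) and -0.16 to 0.12 for Jak2. In ECM remodelling fibroblasts it ranged from -7.05 to 0.75 for Prlr, -0.21 to 0.27 for Stat5a and -0.31 to 0.13 for Jak2, in lobular ones from -0.24 to 5.46 for Prlr and -0.22 to 0.11 for Ghr, and in progenitors from -0.38 to 0.14 for Ghr, -0.05 to 1.64 for Socs2 and -0.22 to 0.21 for Jak2. The Prlr extremes rest on few UMIs. ECM remodelling fibroblasts held 35 and 2 with placebo and 18 and 0 with MPA+E, and the lobular cluster of placebo 1 held 1. The progenitor difference ranged from -0.34 to 0.26 for Ghr, -0.63 to 0.31 for Socs2 and -0.20 to 0.55 for Cish. Against normal glands hyperplasia gave -0.01 to 0.72 for Ghr and -0.09 to 0.60 for Cish.

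Jak2 under MPA+E was 0.01 with no filter on low counts, with a mitochondrial limit of 5% and with all barcodes. DESeq2 called 1358 genes. No filter on low counts called 1022 genes in adipogenesis-regulatory, 643 in ECM remodelling, 761 in lobular, 1183 in preadipocyte and 1562 in progenitor fibroblasts. Placebo and MPA+E libraries share only a number, and the correlation of same-numbered deviations was 0.622 over 2 pairs. With that number as a replicate block, 2451 genes were called over all fibroblasts and 1400, 1387, 334, 1130 and 867 in the same order of states, with Socs2 over all fibroblasts at 1.09 (edgeR adjusted p = 0.000795) and Prlr in preadipocytes at -1.47 (0.0104). Chosen after seeing the data, the library as a replicate block called 347 genes for the progenitor difference. All barcodes gave 760 genes past 2-fold between pregnancy and adult. At a Leiden resolution of 0.5 Stat5a was highest in progenitors in 1 library and Jak2 in the adipogenesis-regulatory state in 8. After thinning to 2000 UMIs the lobular state had the highest share for Ghr in 1 library, and the preadipocyte state for Stat5a in 2, Socs2 in 1, Cish in 4 and Jak2 in 3. The causes were not tested. Leaving out barcodes with both Pappa2 and Lgr5 was also chosen after seeing the data.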
